A study of Caenorhabditis elegans with 36 samples.

Results

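miR-229, miR-64, miR-65 and miR-66 are C. elegans miRNAs whose hairpins lie next to each other on chromosome III. Both mature strands of the 4 hairpins were taken from the count table by name, which gave 8 of 437 mature strands, and all 8 passed the low-count filter of the strain comparison. Their counts were followed in synchronized whole animals grown at 25 °C on plates after arrested first-stage larvae were given food, with 1 small RNA library for every hour from 25 to 42 h after plating in each of 2 strains. The strains were wild-type N2 (WT, 18 libraries) and HW3527, which carries ebax-1(tm2321), a lesion on chromosome IV (18 libraries). Neither strain received any other treatment, and nothing in the labels says that libraries of a strain came from different cultures. The effects of strain, of the culture and of how the libraries were prepared cannot be told apart. The p-values measure the scatter of single libraries around smooth curves over time. In fits with the hour as a factor they measure the scatter of the hourly differences between strains. The samples were whole animals, so fewer cells of a type and less RNA per cell cannot be told apart.

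A miRNA hairpin is cut by Drosha and Dicer into a short duplex. One strand, the guide, is kept by Argonaute and pairs with target mRNAs through its seed, whereas the other, the passenger, is usually lost soon after. EBAX-1 is the worm counterpart of ZSWIM8, a ubiquitin ligase receptor through which selected miRNAs are degraded together with their Argonaute. miR-64, miR-65, miR-66 and miR-229 are annotated as 1 seed family with miR-63, and clustered hairpins of this kind are thought to be cut from shared primary transcripts. miR-64-5p and miR-65-5p are nearly identical along their length. The authors kept reads with several matching positions, so the values of these strands taken singly are uncertain to the extent that they shared reads.

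In the WBcel235 annotation all 4 hairpins lie on the forward strand within a single intron of gcn-1. This gene, named after its yeast counterpart, lies on the same strand (chromosome III, 2151945 to 2197908). No annotated exon overlaps the hairpins. The order is mir-229 (WBGene00003322, 2172452 to 2172566), mir-64 (WBGene00003292, 2172848 to 2172957), mir-65 (WBGene00003293, 2173002 to 2173101) and mir-66 (WBGene00003294, 2173108 to 2173206). The gaps between them are 281, 44 and 6 bp, and the whole stretch covers 755 bp. The reads were aligned to an older build, ce10, so these positions describe the annotation and not the alignments.

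Library totals ranged from 2832088 (25 h) to 5579822 (26 h) counts in WT and from 3720038 (42 h) to 8060155 (34 h) in the mutant. The mutant 34 h library, the deepest, did not stand apart over all strands (median correlation with the other mutant libraries 0.979), but it did for members of the cluster, and the strain values of the cluster that it moved are given with and without it. These counts hold only miRNAs, so the lesion in ebax-1 was not checked in them.

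The 5p strands were the guides of all 4 hairpins by read number. Levels are given as CPM, the reads of a strand relative to all miRNA reads of its library, without a correction for length, since each read stands for 1 short strand. By mean level over the 36 libraries, miR-66-5p ranked 10, miR-65-5p 11, miR-64-5p 13 and miR-229-5p 25 among the 437 strands. Together the 4 guides took 9.79 to 13.1% of the counts of a WT library (median 11.5%) and 8.94 to 12.6% of a mutant library (median 10.6%).

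miR-229-5p, the guide of the first hairpin, was the least abundant of the 4 and the one that separated the strains. In WT its lowest, median and highest levels were 8746, 9597 and 10710 CPM (41 and 35 h for the extremes). In ebax-1(tm2321) they were 5307, 6576 and 7353 CPM (39 and 34 h). The highest mutant library thus lay below the lowest WT library, with no overlap over 18 against 18 libraries. Of the 241 strands tested, 7 were lower in the mutant without overlap in this way, which is 2.90%, and miR-229-5p was the only member of the cluster among them. The separation held for CPM of the library total. On the TMM scale used in the strain tests below the ranges overlapped at the edge (12.93 to 13.33 in log2 CPM in WT, 12.39 to 12.96 in the mutant), with 3 mutant libraries above the lowest WT library.

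The other 3 guides overlapped between the strains. miR-66-5p ran from 36340 over a median of 41040 to 49070 CPM in WT and from 30860 over 35820 to 44590 CPM in the mutant. miR-64-5p ran from 26920 over 32400 to 37050 CPM in WT and from 25710 over 30680 to 44320 CPM in the mutant. miR-65-5p ran from 25420 over 32300 to 37060 CPM in WT and from 26570 over 31850 to 43670 CPM in the mutant. The highest mutant values of both miR-64-5p and miR-65-5p came from the 34 h library, and the next highest mutant values were 33540 and 35140 CPM.

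**Figure D1:**
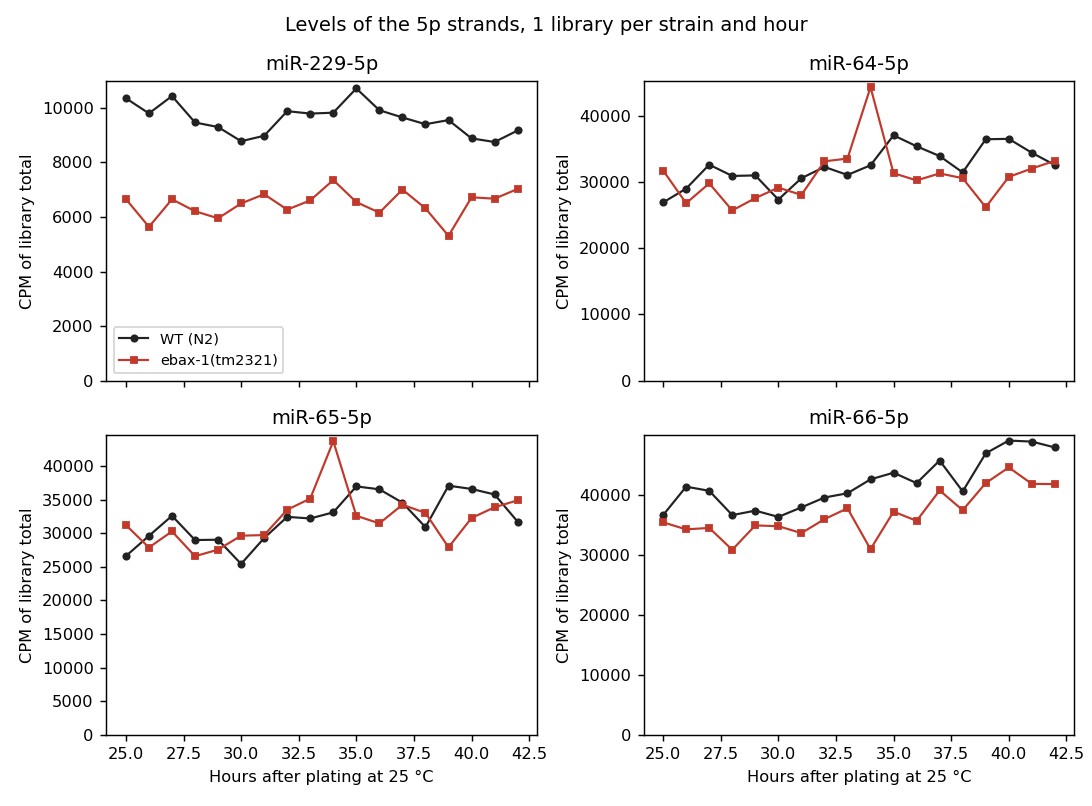
CPM of the library total (vertical axes from 0) of the 4 guides against hours after plating, 1 point per library, WT in black and ebax-1(tm2321) in red. The miR-229-5p lines do not meet (8746 to 10710 CPM in WT, 5307 to 7353 CPM in the mutant), and miR-64-5p and miR-65-5p reach 44320 and 43670 CPM in the mutant library of 34 h.

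Passenger strands, often used as a readout of ongoing hairpin production because they turn over quickly, covered a wide range of levels. miR-229-3p was by far the most abundant, at 1982, 2721 and 3454 CPM in WT (lowest, median, highest) and 1552, 2004 and 2881 CPM in the mutant. miR-64-3p was present at 74.2, 90.7 and 108 CPM in WT and 49.9, 66.3 and 87.4 CPM in the mutant. Both ranges overlapped between strains, with the mutant medians below the lowest WT library for miR-64-3p and just above it for miR-229-3p. miR-66-3p was present at 39.8, 52.8 and 69.5 CPM in WT and 30.0, 46.5 and 64.6 CPM in the mutant. miR-65-3p was the rarest member, at 5.52, 8.70 and 13.1 CPM in WT (23 to 56 reads in a library) and 4.19, 5.75 and 6.91 CPM in the mutant (21 to 44 reads), so its single values carry much counting error.

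**Figure D2:**
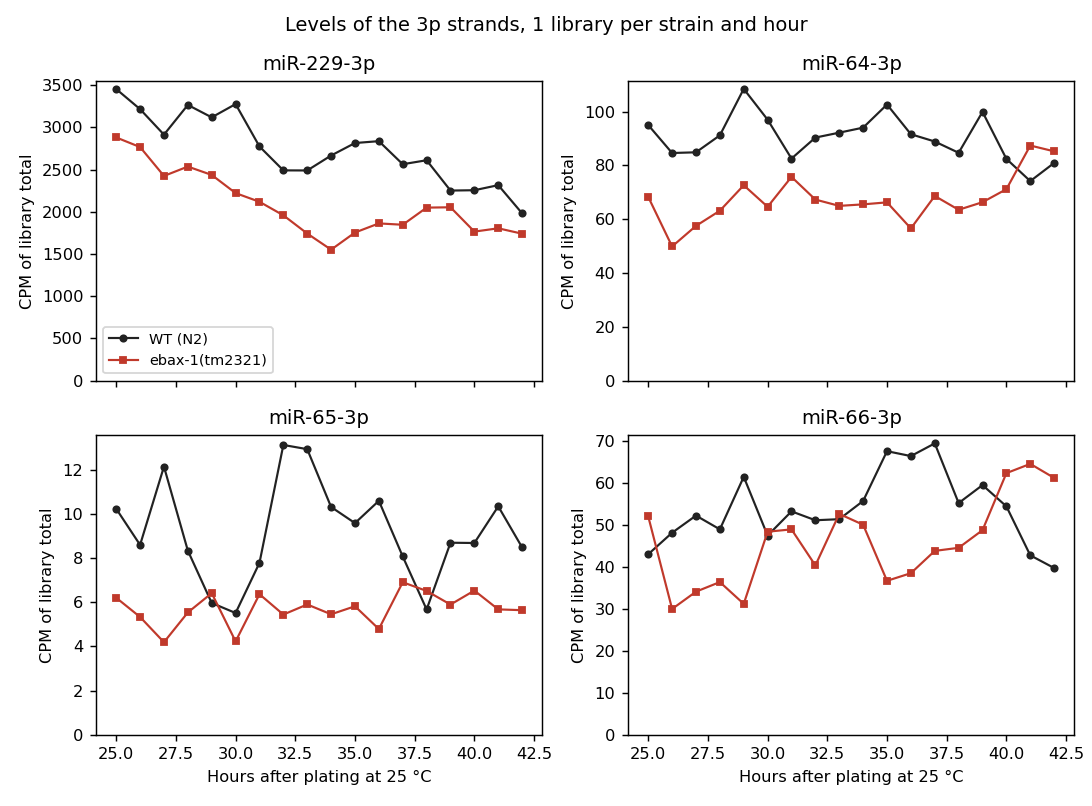
CPM of the library total (vertical axes from 0) of the 4 passenger strands against hours after plating, 1 point per library, WT in black and ebax-1(tm2321) in red. The scales differ widely, from up to 3454 CPM for miR-229-3p to at most 13.1 CPM for miR-65-3p.

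The strain comparison asked how the cluster accumulated without EBAX-1. Mutant animals developed with a delay of 3 h, taken from the study's methods, so WT 25 to 39 h was set against mutant 28 to 42 h (15 aligned hours, n = 15 libraries per strain). Differences are log2 of mutant minus WT ± SE after TMM scaling, a correction for composition between libraries, and were tested with edgeR's quasi-likelihood test with Benjamini-Hochberg adjustment over 241 strands at a threshold of 0.01. Both strands of miR-229 were lower in the mutant. miR-229-5p was lower at -0.38 ± 0.05 (0.766-fold, adjusted p = 2.26e-07) and miR-229-3p at -0.34 ± 0.05 (0.788-fold, adjusted p = 5.42e-07), each in 15 of 15 hours. The hourly differences of miR-229-5p ran from -0.89 (mutant 39 h) to -0.01 (mutant 34 h), and without the mutant 34 h library the mean differences were -0.35 and -0.28.

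Among the other passengers, miR-65-3p was lower at -0.44 ± 0.11 (adjusted p = 0.000871, 12 of 15 hours) and miR-64-3p at -0.22 ± 0.06 (adjusted p = 0.00113, 14 of 15 hours). Their guides had the opposite sign. miR-65-5p was higher at 0.23 ± 0.07 (1.17-fold, adjusted p = 0.00659, 12 of 15 hours), and miR-64-5p did not pass the threshold at 0.16 ± 0.07 (adjusted p = 0.0529, higher in 10 of 15 hours). Neither strand of miR-66 passed, with miR-66-5p at 0.08 ± 0.04 (adjusted p = 0.136) and miR-66-3p at -0.05 ± 0.07 (adjusted p = 0.60). Thus 1 of 8 strands was higher, where 24.1% of all strands tested were, and 4 of 8 were lower, where 26.6% were. The median difference was -0.14 over the 8 and -0.03 over the 241.

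The directions of miR-64-5p and miR-66-5p depended on scaling, whereas those of both miR-229 strands did not under the scalings run. Scaling by library totals moved the median of all strands to -0.23, against -0.03 with TMM, and the split of calls from 58 higher and 64 lower to 34 and 116. Under it miR-229-5p and miR-229-3p stayed lower, at -0.58 and -0.54. miR-65-5p came to 0.03 and lost its call, miR-64-5p turned to -0.04 without one, and miR-66-5p turned to -0.12 and was called lower (adjusted p = 0.0022). miR-66-3p was called lower as well (-0.24, adjusted p = 0.0024), so that 6 of 8 members were lower under this scaling. With no low-count filter the median moved up to 0.10 and 90 strands were called higher and 40 lower, and the calls of miR-64-3p (-0.06, adjusted p = 0.435) and miR-65-3p (-0.27, adjusted p = 0.0363) were lost. Calls also moved when 1 library was left out, and the share of all strands called was not counted in those fits. Without the mutant 34 h library 3 members were called higher, as miR-64-5p (0.17, adjusted p = 0.00155) and miR-66-5p (0.14, adjusted p = 0.000778) then passed beside miR-65-5p (0.25).

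The leave-outs as a whole showed that this was not particular to that library. miR-64-5p passed as higher in 18 of the 30 fits that left out 1 library and miR-66-5p in 23 of 30, while the sign of miR-66-3p turned in 20 of 30 without a call. The filter kept 241 to 244 strands in these fits, and the TMM factors were computed anew in each. The range of each of the 8 members reached further above its value with all libraries than below it. It ran from 0.151 to 0.238 for miR-64-5p (0.161 with all libraries) and from -0.387 to -0.313 for miR-229-5p (-0.384). Whether the library left out or the changed filter and scaling moved these calls was not tested. miR-65-5p lost its call without WT 33 h (0.22, adjusted p = 0.0109), and with a shift of 2 h (0.19, adjusted p = 0.0142) or the aligned hour as a factor (0.23, adjusted p = 0.0144). miR-64-3p lost its call without WT 34 h (-0.16, adjusted p = 0.0105). The calls of miR-229-5p, miR-229-3p and miR-65-3p held in all 30.

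**Figure D3:**
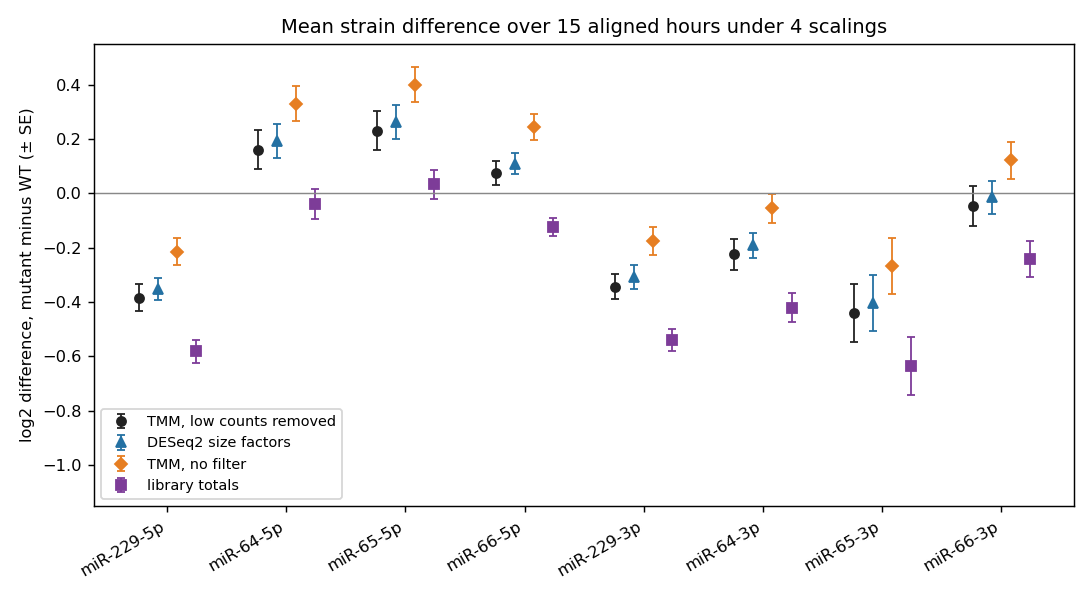
Mean log2 difference of mutant minus WT (vertical axis, ± SE, 15 aligned hours) for the 8 strands under 4 scalings: TMM with and without the low-count filter, DESeq2 size factors and library totals. miR-229-5p stays below 0 under all 4 (-0.58 to -0.21), whereas miR-64-5p runs from -0.04 to 0.33 and miR-66-5p from -0.12 to 0.25.

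A joint test of all strain terms of the fitted curves called 5 of 8 members, against 45.2% of all strands. They were both strands of miR-229 (adjusted p = 1.75e-06 for 5p and 4.15e-05 for 3p), both strands of miR-64 (0.00235 and 0.00153) and miR-65-5p (0.000271), with edgeR. With a spline of 4 components in place of 6 the joint test called 3, and over all alternative settings it called 3 to 7. The share of all strands called was not counted in those settings.

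The shape of the difference over time was asked next. With edgeR the strain-by-time terms called 0 of 8 members, where 7.47% of all strands were called. An unadjusted p under 0.05 was reached by 4 of the 8, and adjusted values were lowest at 0.014 for miR-65-5p and 0.0253 for miR-64-5p. DESeq2's likelihood ratio test called 2 members and limma called 0. For these tools, and at the unadjusted cut, the share of all strands was not counted.

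Within windows of aligned hours, edgeR called 1 member at 25 to 29 h (28.6% of all strands), 2 at 30 to 35 h (27.4%) and 1 at 36 to 39 h (19.5%). miR-229-5p was the member called in all 3 windows, lower at -0.40 ± 0.10, -0.32 ± 0.09 and -0.47 ± 0.11 (adjusted p = 0.00421, 0.00952 and 0.00296). miR-229-3p was called in the middle window at -0.39 ± 0.09 (adjusted p = 0.00156). The guides miR-64-5p and miR-65-5p had values of 0.29 and 0.37 in that middle window, which holds the mutant 34 h library, and of -0.05 and 0.01 in the last, none of them called.

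Without the mutant 34 h library 3, 3 and 1 members were called in the windows. miR-229-5p stayed called in each (-0.33, -0.29 and -0.45). miR-64-5p and miR-65-5p were called higher in the middle window (0.27 and 0.36) and in the first (0.24 and 0.31). miR-229-3p lost its call in the middle window (-0.27, adjusted p = 0.0228 with edgeR). The first window does not hold that library, yet all 8 members moved up there, miR-64-5p from 0.17 to 0.24 and miR-229-5p from -0.40 to -0.33. This fit kept 243 strands in place of 241 and computed the TMM factors anew. What moved the values of the first window was not tested. The window calls also moved with scaling. Library totals called 3, 4 and 2 members. The share of all strands called in the windows was counted only with all libraries, TMM scaling and the low-count filter. An unfiltered fit called 0 members in the first and the last window, and in the middle one it called the guides of miR-64, miR-65 and miR-66 higher. In that unfiltered fit miR-229-5p lost its call in all 3 windows (-0.31, -0.08 and -0.29, adjusted p = 0.0236, 0.602 and 0.064 with edgeR), as did miR-229-3p in the middle one (-0.16, adjusted p = 0.315 with edgeR).

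Because scaling decided several of these signs, neighbouring guides were also compared as log2 ratios within a library, where a scaling factor cancels. Differences between strains were tested with limma over all 74 pairs of hairpins on 1 strand and under 10 kb apart. miR-229-5p fell relative to each of its neighbours in the mutant. Its log2 ratio to miR-65-5p was -1.74 ± 0.17 in WT and -2.30 ± 0.12 in the mutant (mean ± SD, n = 18 each). The WT libraries ran from -2.04 to -1.36 and the mutant libraries from -2.57 to -2.10, so the strains did not overlap. Other pairs had separate ranges too, such as miR-35-3p over miR-37-3p (-0.14 to 0.12 in WT, 0.15 to 0.57 in the mutant). How many of the 74 pairs did was not counted. Over the aligned hours the ratio of miR-229-5p to miR-65-5p was lower in the mutant by -0.61 ± 0.04 (adjusted p = 3.73e-12 with limma, 15 of 15 hours).

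Relative to miR-64-5p the difference was -0.54 ± 0.04 (adjusted p = 8.36e-11 with limma, 15 of 15 hours). The WT libraries ran from -2.04 to -1.38 and the mutant libraries from -2.59 to -2.04, so that their ranges met at the edge. Relative to miR-66-5p it was -0.46 ± 0.05 (adjusted p = 1.48e-08 with limma, 14 of 15 hours), and the ranges overlapped (-2.48 to -1.82 in WT, -2.98 to -2.07 in the mutant). The highest of these mutant ratios was that of the 34 h library (-2.07), and the next was -2.30. Without that library the 3 differences were -0.60, -0.52 and -0.49 in the same order.

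Pairs that did not include miR-229-5p moved little. The ratio of miR-64-5p to miR-65-5p stayed near 0 in both strains, at 0.01 ± 0.05 in WT and -0.05 ± 0.04 in the mutant (mean ± SD, n = 18 each), and its strain difference of -0.07 ± 0.03 did not pass (adjusted p = 0.0222 with limma). How many reads these near-identical guides shared was not tested. miR-65-5p over miR-66-5p differed by 0.15 ± 0.07 (adjusted p = 0.0409 with limma) and miR-64-5p over miR-66-5p by 0.08 ± 0.07 (adjusted p = 0.282 with limma). Both ratios were highest in the mutant 34 h library, at 0.50 and 0.52 where the next highest mutant values were -0.10 and -0.12, and without it the differences were 0.11 and 0.03, again not called.

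Of the 6 pairs within the cluster 3 were called, where 59.5% of all 74 pairs were. Ordered by size of the strain difference, the 3 pairs with miR-229-5p ranked 23, 27 and 31 of 74 (the median size over all pairs was 0.371). The 74 pairs were drawn from 58 hairpins, so many hairpins entered several pairs. Many pairs came from the group of miR-35 to miR-41 or from that of miR-4807 to miR-1018. The ranks, the median and the 59.5% thus count a few loci repeatedly. Whether differences of this size were common across separate loci was not tested.

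**Figure D4:**
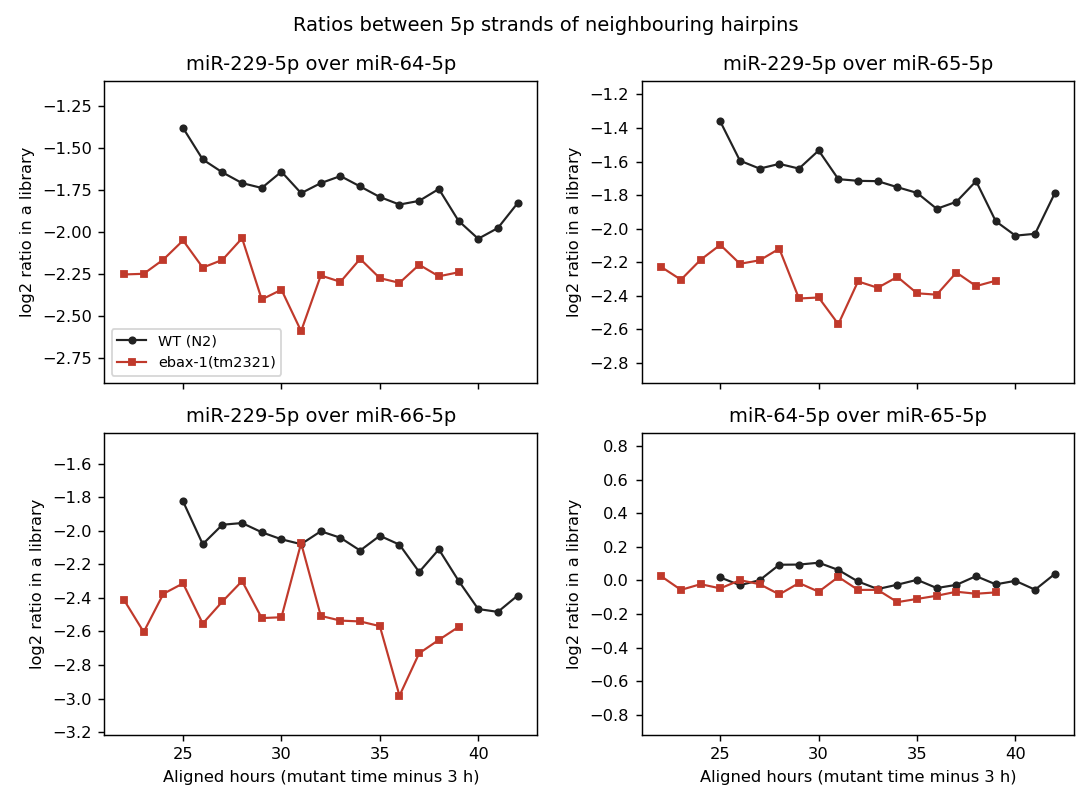
Log2 ratio of guide pairs within each library (vertical axes, each spanning the same number of log2 units) against aligned hours, where mutant time is reduced by 3 h. WT in black, ebax-1(tm2321) in red, 1 point per library. The ratios of miR-229-5p to miR-64-5p and to miR-65-5p are lower in the mutant at all 15 aligned hours, while miR-64-5p over miR-65-5p stays between -0.13 and 0.11 in both strains.

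The make-up of the cluster gave the same values as shares. miR-229-5p made up 6.78 to 10.3% of the 4 guides in WT (median 8.39%) and 5.24 to 6.96% in the mutant (median 5.99%). In the mutant 34 h library miR-64-5p made up 35.1%, miR-65-5p 34.6% and miR-66-5p 24.5%. The next lowest share of miR-66-5p in any mutant library was 33.0%, which puts this library apart from the rest in how the 4 guides were divided.

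The strand ratio, log2 of the 5p over the 3p strand within a library, shows whether guide and passenger of a hairpin differed alike between the strains. It was tested with limma over 86 hairpins with both strands kept. The ratio of miR-65 was higher in the mutant by 0.58 ± 0.09 (adjusted p = 3.04e-06 with limma) and that of miR-64 by 0.38 ± 0.08 (adjusted p = 0.00016 with limma). Those of miR-66 (0.12 ± 0.07, adjusted p = 0.148 with limma) and miR-229 (-0.04 ± 0.07, adjusted p = 0.674 with limma) did not pass. So 2 of 4 hairpins were called, against 36.0% of the 86, and both stayed called without the mutant 34 h library (0.55 and 0.34).

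In reads, miR-64 had a median of 363 guide reads per passenger read in WT and 460 in the mutant. miR-65 had 3603 and 5408, miR-66 had 769 and 843, and miR-229 had 3.64 and 3.21. The hairpin of miR-229 thus left far more of its 3p strand beside the 5p strand than its 3 neighbours did, in both strains.

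**Figure D5:**
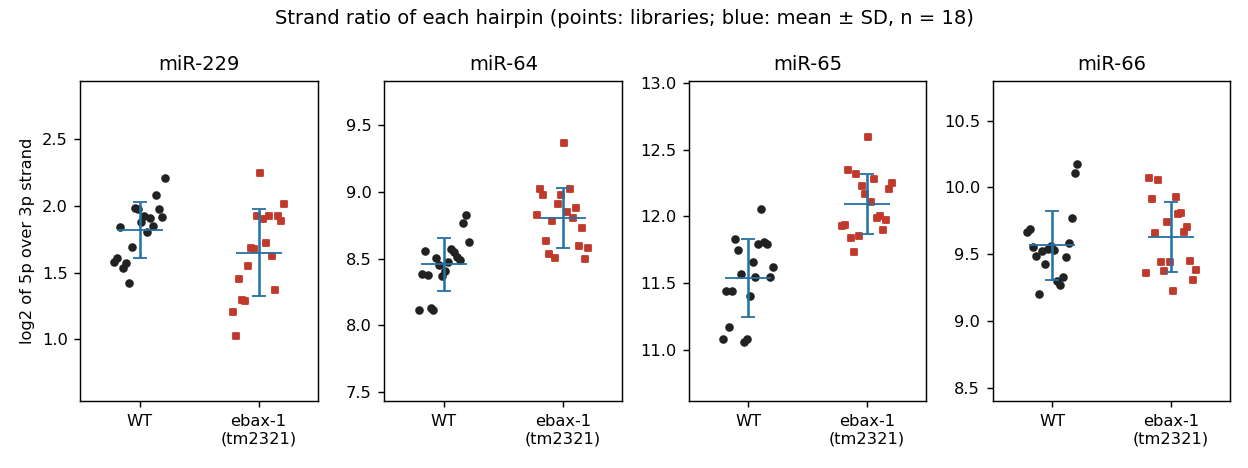
Log2 of the 5p over the 3p strand (vertical axes, each spanning the same number of log2 units) of each hairpin in every library, with mean ± SD (n = 18 per strain) in blue. miR-64 (8.46 in WT, 8.80 in the mutant) and miR-65 (11.54 and 12.09) are shifted up in the mutant, while the means of miR-66 (9.57 and 9.63) and miR-229 (1.82 and 1.65) lie within 1 SD of each other.

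The time course of each strain (18 libraries) was tested by itself with edgeR, and the size of a change is the difference in mean TMM-scaled log2 CPM between late (40 to 42 h) and early (25 to 27 h) libraries, n = 3 each. The hours were counted from plating and not shifted for the mutant's delay of 3 h. Early and late thus stand for earlier stages in the mutant than in WT. In WT the guides of miR-64, miR-65 and miR-66 rose together. miR-66-5p rose from 15.16 ± 0.20 to 15.76 ± 0.03 (SD), a change of 0.60 (adjusted p = 1.11e-05 with edgeR). miR-65-5p rose by 0.53 (adjusted p = 3.05e-05 with edgeR) and miR-64-5p by 0.53 (adjusted p = 7.46e-05 with edgeR). These 3 rises remained past the threshold with library totals, at 0.30, 0.23 and 0.23.

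miR-229-5p did not pass in WT, with a change of 0.11 (adjusted p = 0.0104 with edgeR) that turned to -0.19 with library totals (adjusted p = 0.0237). Leaving out 1 library brought it past the threshold in 12 of 18 fits, so miR-229-5p lay close to it. miR-229-3p had -0.24 (adjusted p = 0.0571 with edgeR) and was called only with library totals (-0.55, adjusted p = 0.000257) among these 2 scalings. miR-66-3p passed with 0.23 (adjusted p = 0.00352), but the sign turned with library totals (-0.07), and the call was lost without WT 25 h (0.09, adjusted p = 0.0225) or WT 37 h (adjusted p = 0.0166). In CPM it was highest in the middle of the series, at 67.7, 66.5 and 69.5 CPM at 35 to 37 h, and lowest at 42 h (39.8 CPM). In all, 4 of 8 members changed in WT, where 72.5% of the 218 strands tested did. Library totals moved the median change of all strands in WT from -0.12 to -0.42, and in the mutant from -0.05 to -0.32.

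In the mutant 6 of 8 members changed, where 59.0% of 222 strands did. The guides rose by 0.57 for miR-66-5p (adjusted p = 0.000105), 0.45 for miR-65-5p (adjusted p = 0.000806) and 0.39 for miR-64-5p (adjusted p = 0.00352). The passengers went both ways. miR-66-3p rose by 0.997 (adjusted p = 5.23e-05) and miR-64-3p by 0.74 (adjusted p = 0.000612), while miR-229-3p fell by 0.33 (adjusted p = 0.00581). The last 3 mutant libraries held the highest levels of miR-66-3p (62.4, 64.6 and 61.3 CPM), and miR-64-3p was highest at 41 and 42 h (87.4 and 85.2 CPM). miR-229-5p had 0.38 (adjusted p = 0.0175) and miR-65-3p 0.44 (adjusted p = 0.167), neither called. Without the mutant 26 h library 3 members were called, as miR-64-5p (0.22, adjusted p = 0.0391), miR-65-5p (0.29, adjusted p = 0.0148) and miR-64-3p (0.53, adjusted p = 0.0459) dropped out, and with library totals 3 were called too (edgeR throughout). The rise of miR-64-5p also lost its call without mutant 27, 28, 39 or 40 h, and the fall of miR-229-3p without mutant 35, 38 or 42 h.

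Within a WT library miR-229-5p also declined relative to its neighbours over time. Its log2 ratio to miR-66-5p went from -1.96 ± 0.13 at 25 to 27 h to -2.45 ± 0.05 at 40 to 42 h (mean ± SD, n = 3), a change of -0.49 (adjusted p = 0.0007 with limma). The changes against miR-64-5p and miR-65-5p were both -0.42 (adjusted p = 0.00114 and 0.000687 with limma). So 3 of 6 pairs changed over time in WT, against 55.4% of 74 pairs. The call against miR-64-5p was lost without WT 25 h (-0.34, adjusted p = 0.0112 with limma), the library with the highest value of all 3 ratios.

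At 25 to 27 h the same 3 ratios in the mutant lay near their WT level of 40 to 42 h or below it. Their changes in the mutant were -0.01, -0.07 and -0.19. These hours were not shifted for the mutant's delay of 3 h. The levels and changes thus do not compare the strains at like stages. Within the mutant limma called 0 of 6 pairs, against 29.7% of all pairs, and 0 of 6 had an unadjusted p under 0.05. Whether the time course of the ratios differed between strains was tested directly over the aligned hours. limma called 0 of 6 pairs, against 6.76% of all pairs, 0 of 6 had an unadjusted p under 0.05, and the 3 pairs with miR-229-5p had adjusted p of 0.323 to 0.712. A difference in time course between strains was therefore not shown, and no other tool was run on the ratios.

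Many larval transcripts cycle with the molts, so a rhythm with a period of 7 h was fitted over 11 libraries per strain (25 to 35 h in WT, 28 to 38 h in the mutant). edgeR called 0 of 8 members in WT, where 13.2% of 219 strands were called, and 3 of the 8 had an unadjusted p under 0.05. The share of all strands under that unadjusted cut was not counted. Amplitudes in WT were 0.12 to 0.17 in log2 for 7 of the 8. The exception was miR-65-3p (0.50, adjusted p = 0.0154), whose WT levels of 5.52 CPM at 30 h and 13.1 CPM at 32 h rest on few reads. In the mutant edgeR called 0 of 8, against 0% of 221 strands, with amplitudes of 0.03 to 0.20 and 0 of 8 at an unadjusted p under 0.05. Even let-7-3p, with an amplitude of 1.55, was not called there (adjusted p = 0.0222 with edgeR). The absence of calls in the mutant thus cannot tell whether the members had a weak rhythm. limma also called 0 members in either strain.

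Over all 36 libraries, miR-64-5p and miR-65-5p varied most alike among the guides (Pearson r = 0.98 of TMM-scaled log2 CPM). miR-66-5p had r of 0.71 with miR-64-5p and 0.74 with miR-65-5p, and miR-229-5p had r of 0.19 to 0.40 with its 3 neighbours. These pooled values also carry the difference in level between the strains. Within a strain miR-229-5p varied much more like its neighbours, with r of 0.82 to 0.86 in the 18 WT libraries and 0.56 to 0.85 in the 18 mutant libraries. The mutant 34 h library moved the values of miR-66-5p, which without it had pooled r of 0.87 with both miR-64-5p and miR-65-5p, and r of 0.79 and 0.83 with them in the mutant in place of 0.42 and 0.54. All r are descriptions over libraries that share a scaling and, for miR-64-5p with miR-65-5p, possibly reads. Outside the cluster, over the pooled libraries, the strands most like miR-66-5p were miR-78 (r = 0.92), miR-70-3p (0.88) and miR-36-5p (0.87). Those most like miR-229-5p were miR-789-5p (0.86), miR-1829c-5p (0.85) and miR-392-3p (0.84), but within a strain these 3 had only 0.50 to 0.70 in WT and 0.52 to 0.70 in the mutant. miR-64-5p and miR-65-5p had the same 3 nearest strands, miR-250-3p (0.72 and 0.75), miR-58a-3p (0.70 and 0.74) and miR-78 (0.71 and 0.73). The values with miR-78 also differed within strains, at 0.95 in WT and 0.48 in the mutant for miR-64-5p.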

How the data were processed

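Libraries had been made with the CleanTag kit from size-selected RNA. The authors trimmed adapters with QuasR, aligned reads to ce10 with Bowtie (versions not given in the sources used here) with up to 100 matching positions allowed, and counted reads that began within 3 bp of a mature 5′ end of miRBase version 22 on the annotated strand. The deposited counts are whole reads for 437 strands, not normalized. The authors derived the deposited log2 values by scaling each library to the mean total and adding 8, and recomputing them gave differences of at most 5e-04. Reads carried no molecular identifiers, so precision reflects scatter between libraries.

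Tests used the counts in R 4.3.3 with edgeR 4.0.16 (quasi-likelihood, filterByExpr by strain with a minimum count of 10, TMM, adjusted p threshold 0.01). Strain fits used 6 components of a cubic B-spline over aligned hours, with its products with strain for the joint and strain-by-time tests, or the aligned hour as a factor for the windows. Ratios were tested with limma 3.58.1 (intensity trend, pseudocount of 8). Of 247 hairpins, 240 had a position in the annotation. DESeq2 1.42.0 served as an alternative, beside other scalings, shifts, splines and leaving out each library. The strain, time, rhythm and ratio fits were tested on simulated data.

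The members and lists were chosen with earlier results of these data known. All members were named, with the 3 strands most correlated with each guide (log2 CPM, prior count of 2). The rule also named strands with the same seed, but mature sequences were not used here, so miR-63 was taken from background knowledge after its values were seen. The tests of neighbour ratios in the mutant and of strain by time, and the windows without 1 mutant library, were added after seeing the data.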

Additional observations from a re-analysis of the deposited data

How the results depend on the processing

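In all, 2019 alternative values were compared, 1533 of them from fits that left out 1 library. Shares of all strands called were counted for the fits with the settings given first and, for the mean strain difference, for 4 scalings. The lower level of both miR-229 strands in the mutant held in all alternatives of the mean strain difference (-0.58 to -0.21 for miR-229-5p, -0.54 to -0.18 for miR-229-3p), and the strain calls of strand ratios and neighbour ratios stayed at 2 and 3 throughout. The number of members called higher in the mutant, 1, became 2 with DESeq2 size factors and with DESeq2's likelihood ratio test, 3 with no filter, and 0 with library totals, limma on the authors' transformation, the aligned hour as a factor or a shift of 2 h. Leaving out 1 library gave 0 (WT 33 h) to 3. The number called lower, 4, became 2 with no filter and 6 with library totals or limma. The joint test went from 5 to 3 with a spline of 4 components and reached 7 at most over the alternative settings. The strain-by-time test went from 0 to 1 with DESeq2 size factors and with no shift, and to 2 with DESeq2's likelihood ratio test.

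In the windows of 25 to 29, 30 to 35 and 36 to 39 h, library totals and limma each called 3, 4 and 2 members in place of 1, 2 and 1. DESeq2 size factors called 4 and 2 in the later windows, and no filter called 0 in the first and the last and lost both miR-229 strands in the middle one (-0.08 and -0.16). Without mutant 34 h, chosen after seeing the data, 3, 3 and 1 were called. Change over time in the mutant went from 6 to 3 with library totals and with limma, and reached 7 at most over the alternative settings. Over the leave-outs it ranged from 3 (without mutant 26 h) to 6.

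With library totals and with limma on the authors' transformation, which also divides by library totals, the mean strain difference turned to -0.038 and -0.041 for miR-64-5p and to -0.12 in both for miR-66-5p. In the first window miR-64-5p turned to -0.069 and miR-66-5p to -0.18, and in the second miR-66-5p to -0.13, with both. In the last miR-65-5p turned to -0.11 and miR-66-5p to -0.040 with both, and miR-66-3p to -0.083 and -0.081. Over time in WT, library totals and limma turned miR-64-3p to -0.15 in both, miR-65-3p to -0.16 and -0.14, miR-66-3p to -0.074 and -0.072 and miR-229-5p to -0.19 in both. With no filter miR-66-3p turned to 0.12 in the mean strain difference, 0.007 in the first window and 0.15 in the second, and in the last miR-64-5p turned to 0.13 and miR-64-3p to 0.054. A shift of 4 h turned the strand ratio of miR-229 to 0.01. Over the leave-outs the mean difference of miR-66-3p ranged from -0.058 to 0.035 and the change in WT of miR-64-5p over miR-65-5p from -0.025 to 0.021. Other scalings moved the median of all strands, and no further cause was tested.

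The labels carry no replicate numbers. The fit with the aligned hour as a factor pairs the strains by hour, and of the 5 members called by the mean difference it lost miR-65-5p (0.23, adjusted p = 0.0144 with edgeR). Depth limits miR-65-3p most, at 21 to 56 reads in a library.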

Other observations

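miR-63, a relative of the cluster by its seed that lies elsewhere (chromosome X, 17598765 to 17598868, reverse strand, WBcel235), was also lower in the mutant. Its guide is the 3p strand, with 2309, 2636 and 2905 CPM in WT (lowest, median, highest) and 1625, 2002 and 2232 CPM in ebax-1(tm2321), so that the strains did not overlap on this scale of library totals. With TMM scaling they did overlap, at 10.95 to 11.57 in log2 CPM in WT and 10.80 to 11.26 in the mutant. miR-63-3p differed by -0.22 ± 0.05 (adjusted p = 0.000471 with edgeR, lower in 11 of 15 aligned hours) and miR-63-5p by -0.38 ± 0.06 (adjusted p = 2.9e-06 with edgeR, 15 of 15 hours). Its strand ratio did not pass (-0.16 ± 0.06, adjusted p = 0.0236 with limma). miR-63 was chosen after its values were seen. Of the 241 strands tested with TMM scaling, 26.6% were called lower in the mutant. Other scalings, shifts and leave-outs were not run for miR-63, so whether its calls hold under them was not tested.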
